A study of Mus musculus with 6 samples.

Results

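The endothelial-like cells of this cardiac co-culture study were 177 of the 2388 nanowells with at least 500 detected genes outside the mitochondrial genome. They were 74 of 1344 wells on the chip labelled cardiomyocytes and 103 of 1044 wells on the chip labelled fibroblasts. A well was taken as endothelial-like when at least 3 of 9 endothelial marker genes (Pecam1, Cdh5, Emcn, Kdr, Tek, Tie1, Egfl7, Esam and Cldn5) were detected, with at least 8 unique molecular identifiers (UMIs, each standing for 1 captured transcript) over the 9 genes together. Control wells were left out. The values of these 9 genes in the wells were therefore used to choose the cells and are given as a description.

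The study grew immature cardiomyocytes (imCMs) from hearts of newborn C57BL/6J mice on layers of cardiac fibroblasts from newborn hearts (NFs) or from adult hearts (AFs), to ask whether adult fibroblasts promote maturation. The fibroblasts had been passaged before the co-culture and were told from the imCMs by a fluorescent dye and flow sorting. Single cells were dispensed on 2 ICELL8 nanowell chips, 1 per sorted fraction, with wells chosen by imaging for 1 live cell. Separately, RNA of the imCM fraction was sequenced in bulk. There were 2 such libraries from co-culture with NFs, called imCM-NF, and 2 from co-culture with AFs, called imCM-AF. All groups are wild-type cells, and none was enriched for endothelial cells.

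Within each chip the authors' well report gives every well a name. The cardiomyocytes chip held AFNCM, NFNCM and NCM0 wells, and the fibroblasts chip held AF, AF0, NF and NF0 wells, each name followed by a number. What the 0 stands for, and so whether those wells held co-cultured cells, is not given in the sources used here. Wells whose names differ only in the number were merged, a grouping chosen after the data had been seen. Each chip is 1 library, and a named set of wells has no replicate check. No test was run on wells, and the intervals below are 95% intervals of counting error only, exact Poisson for levels in CPM (UMIs of a gene over all UMIs of the wells summed, times a constant) and exact binomial for shares of wells.

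Endothelial cells line the blood vessels and the inner surface of the heart. They are held together by VE-cadherin (Cdh5), PECAM1, claudin 5 (Cldn5) and ESAM, and they read angiogenic signals through the VEGF receptor KDR and the angiopoietin receptor TEK with its partner TIE1. Their genes are controlled by ETS factors such as ERG and FLI1 and by SOX factors such as SOX17. In the heart they also signal to cardiomyocytes through ligands such as neuregulin (Nrg1) and endothelin (Edn1).

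Promoters of rule markers are shown for the letters that ETS and GATA factors are known to bind. Of the 9 rule markers, 6 had a window of 250 bases before the gene start in RefSeq (GRCm38.p6). The 3 of these with the highest mean CPM, Emcn, Egfl7 and Tek, were searched on both strands. The letters of the ETS motifs were CCGGAAG in the first search. In the next they were CAGGAAG. The GATA motif was searched as AGATAA. The windows shown are chr3:137340828-137341077 for Emcn, chr2:26583615-26583864 for 1 of the Egfl7 starts and chr4:94739039-94739288 for Tek, all on the plus strand and written 5′ to 3′. Capitals mark CAGGAAG or its complement.
Emcn: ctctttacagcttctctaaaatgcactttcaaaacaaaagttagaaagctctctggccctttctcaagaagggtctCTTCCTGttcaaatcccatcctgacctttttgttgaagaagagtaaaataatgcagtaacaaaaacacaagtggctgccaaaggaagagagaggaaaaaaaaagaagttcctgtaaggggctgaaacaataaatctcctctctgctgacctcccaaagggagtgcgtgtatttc
Egfl7: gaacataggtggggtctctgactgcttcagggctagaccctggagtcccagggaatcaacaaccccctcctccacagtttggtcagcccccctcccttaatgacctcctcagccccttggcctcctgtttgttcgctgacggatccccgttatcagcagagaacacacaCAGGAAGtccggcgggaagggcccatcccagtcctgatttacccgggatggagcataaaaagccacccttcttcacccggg
Tek: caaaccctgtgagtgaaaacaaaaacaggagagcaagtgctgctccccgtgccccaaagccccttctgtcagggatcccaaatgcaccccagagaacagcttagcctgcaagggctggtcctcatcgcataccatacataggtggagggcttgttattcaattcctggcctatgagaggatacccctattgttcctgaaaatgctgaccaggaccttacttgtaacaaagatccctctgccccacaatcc
The Emcn window held CAGGAAG on the minus strand, 174 bases before the start. The Egfl7 window shown held it on the plus strand, 81 bases before the start. Over the 3 markers 5 windows were searched, since Egfl7 had further starts. Of its windows not shown, chr2:26580833-26581082 held CAGGAAG 90 (plus strand) and 49 (minus strand) bases before the start. The window chr2:26586386-26586635 held no motif. The Tek window held none of the 3 motifs. Of all 32851 windows of the same length 10.8% held CAGGAAG, and the other ETS motif and the GATA motif were in 6.91% and 9.99%. These matches are a description of the letters and not of a bound site.

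The endothelial-like wells were deeper than the wells around them. Their median was 27386 UMIs (6780 to 155726) on the cardiomyocytes chip against 18209.5 in the other wells, and 55860 (5977 to 286736) on the fibroblasts chip against 29469. They held a median of 3934 and 5060 genes, against 2738 and 3756. Mitochondrial genes took a median of 13.1% of their UMIs on the cardiomyocytes chip and 5.06% on the fibroblasts chip, against 21.8% and 6.75% in the other wells. Wells above 2 times the median UMIs of the other wells made up 43.2% and 49.5% of the endothelial-like wells and 26.5% and 27.3% of the other wells. The chips shared 269 cell barcodes, of which 2 were endothelial-like on both.

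The rule markers stood at a median of 55.5 UMIs per endothelial-like well on the cardiomyocytes chip (8 to 652) and 54.0 on the fibroblasts chip (8 to 815). The other wells had a median of 0, with 0 UMIs of all 9 genes in 76.1% and 60.5% of them, and 0 of 5 and 1 of 5 negative control wells had any. At least 5 of the 9 markers were detected in 56 of 74 and 47 of 103 endothelial-like wells, so the cells of the cardiomyocytes chip carried the fuller set. Just inside the UMI threshold, at 8 or 9 UMIs, stood 4 and 8 wells, and just outside it, at 5 to 7 UMIs with at least 3 markers, stood 3 and 11. The wells just inside had a summed Ctla2a level of 2157 CPM on the cardiomyocytes chip and 575 CPM on the fibroblasts chip, and those just outside had 3594 and 298 CPM. A further 22 and 52 wells had at least 8 UMIs but fewer than 3 markers.

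VE-cadherin, the adhesion molecule of endothelial junctions, was found in 69 of the 74 wells on the cardiomyocytes chip and 100 of the 103 on the fibroblasts chip. Its summed level was 678 and 514 CPM against 4.04 and 9.80 CPM in the other wells. Single wells ranged from 0 through a median of 612 to 4139 CPM in AFNCM, from 0 through 339 to 1951 CPM in NFNCM, from 10.2 through 881 to 6898 CPM in AF, from 0 through 188 to 2238 CPM in AF0 and from 0 through 542 to 5626 CPM in NF. These ranges overlap throughout, and the AF wells were the ones with no well at 0. Endomucin (Emcn), a surface sialoglycoprotein of capillary, venous and endocardial cells, was at 329 CPM in 63 wells and 471 CPM in 97 wells, and PECAM1 at 180.3 CPM in 63 wells and 128 CPM in 77.

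The growth factor receptors and the remaining junction genes divided the chips. Kdr, the main VEGF receptor, had UMIs in 32 of 74 wells of the cardiomyocytes chip, at 79.2 CPM, and in 8 of 103 wells of the fibroblasts chip, at 3.66 CPM. In the other wells it was at 2.25 and 2.07 CPM. All 24 endothelial-like NF wells were at 0 for Kdr and for Esam. Esam was at 303 CPM in AFNCM, 140.3 in NFNCM, 98.3 in AF and 81.9 in AF0. Tek was at 71.0 and 21.8 CPM in the 2 chips, Tie1 at 51.6 and 36.9 CPM, and Egfl7, a secreted vascular factor, at 223 and 128 CPM. Claudin 5, a tight junction protein, was scarce throughout, at 5.46 CPM in 13 wells and 1.31 CPM in 4 wells. The 2 chips are separate libraries, so chip and cell fraction cannot be told apart.

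The label was checked on genes that the rule did not use. Of 34 further endothelial identity genes, the median well held 18 on the cardiomyocytes chip against 2 in the other wells, and 14 against 4 on the fibroblasts chip. Thinned to 5000 UMIs per well, these became 9 against 1 and 6 against 2. Among all genes with at least 50 UMIs in the endothelial-like wells, 4.65% on the cardiomyocytes chip and 2.88% on the fibroblasts chip were at least 4 times as high as in the other wells. Of the identity genes, 24 of 28 and 20 of 29 were, with a median ratio of 19.9 and 13.4 beside 1.23 and 1.03 for all genes. Because the same wells were chosen by related genes, these ratios describe the wells and test nothing. On the fibroblasts chip the gap was smallest in AF0, which gave 53 of the 103 wells. There the identity genes summed to a median of 1833 CPM against 748 CPM in the other AF0 wells. In AF these medians were 4782 and 381 CPM, in NF 2961 and 401 CPM and in NF0 2388 and 521 CPM. Of the 53 AF0 wells, 27 had no UMI of Cd93, and of the rule markers 49 had none of Kdr and 38 none of Tie1.

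The transcription factors of endothelial identity were low in count. Erg, an ETS factor, was at 95.3 CPM against 1.46 in the other wells, and at 26.8 against 0.885 CPM on the fibroblasts chip. Sox17 was at 66.8 against 0.550 CPM on the cardiomyocytes chip, with UMIs in 30 wells, but at 6.93 CPM in only 7 wells of the fibroblasts chip, where 1 well gave 56.6% of the UMIs. Fli1 was at 68.0 against 6.71 CPM on the cardiomyocytes chip and at 49.5 against 14.1 CPM on the fibroblasts chip, a ratio of 3.52 that stayed below the 4-fold limit. Ets1, an ETS factor of many cell types, was at 90.1 against 25.1 and at 83.5 against 59.5 CPM.

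Several surface molecules of endothelium were at least 4 times as high on both chips. Cd93, a receptor of angiogenic endothelium, was at 511 against 7.23 CPM on the cardiomyocytes chip and 119 against 10.7 CPM on the fibroblasts chip. Adgrf5 was at 420.0 against 6.24 and at 303 against 14.3 CPM, Ecscr, an endothelial chemotaxis regulator, at 464 against 21.4 and at 251 against 37.3 CPM, and Mmrn2, an extracellular matrix protein that binds CD93, at 74.4 against 0.907 and at 103 against 2.61 CPM. Icam2, an adhesion molecule of resting endothelium, was at 108 against 1.98 and at 80.4 against 2.96 CPM. Plvap, which forms the diaphragms of fenestrae, was at 94.7 against 5.19 and at 101 against 3.67 CPM. Cd34, a sialomucin also of fibroblast precursors, was at 139 against 7.23 CPM on the cardiomyocytes chip. On the fibroblasts chip it was at 42.2 against 20.7 CPM, a ratio of 2.04.

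Some identity genes were close to 0 or under the 4-fold limit. Nos3, the endothelial nitric oxide synthase, had 0 UMIs in the endothelial-like wells of both chips, which allows a level of up to 0.911 and 0.392 CPM, while the other wells held 3 and 4 UMIs. Tmem100 had 2 and 0 UMIs. Klf2, a factor induced by flow, was at 98.9 against 33.0 and at 119 against 35.9 CPM, ratios of 3.0 and 3.32. Arhgap31 was at 73.1 against 48.1 CPM on the cardiomyocytes chip, a ratio of 1.52.

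**Figure D1:**
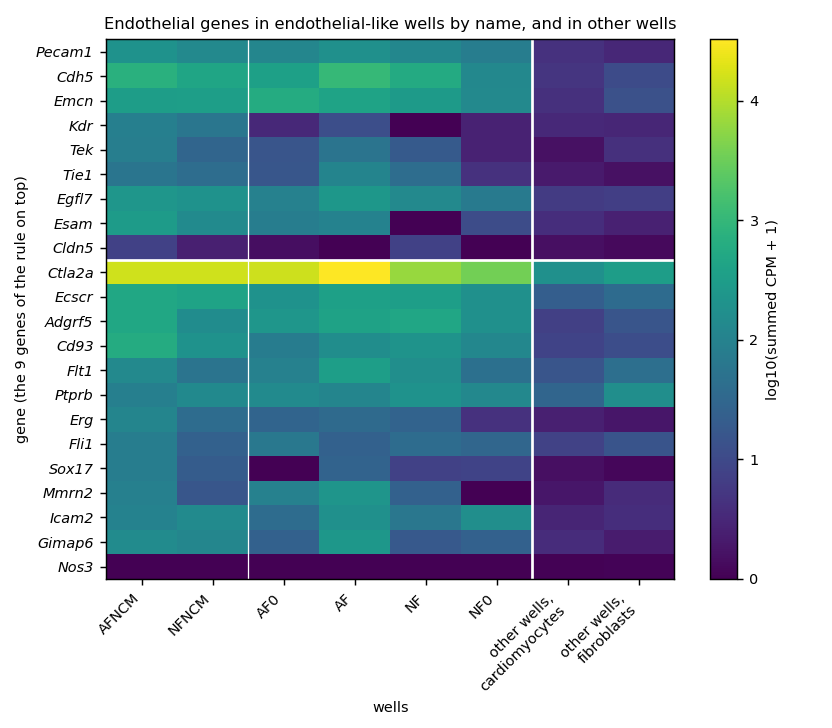
Heat map of the summed level of 22 endothelial genes (rows, the 9 rule genes on top) as log10(CPM + 1), in endothelial-like wells by well name and in the other wells of each chip (columns). Ctla2a is the brightest row, at 15321 and 16127 CPM over the endothelial-like wells of the chips against 179.6 and 325 CPM in the other wells, while Nos3 is dark in every column and Kdr and Esam are dark in NF.

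On both chips together, 89 of 6729 genes that reached 50 UMIs in the endothelial-like wells of each chip were at least 4 times as high as in the other wells, a background of 1.32%. Of these, 29 were in the gene lists, 18 of them identity genes, and 60 were in none. The highest of them in level was Ctla2a, an inhibitor of cathepsin L first described in T lymphocytes. It was detected in 72 of 74 wells, at 15321 CPM against 179.6 CPM, and in 102 of 103 wells, at 16127 against 325 CPM. Single wells of the cardiomyocytes chip ranged from 0 through a median of 4337 to 139479 CPM for Ctla2a, and those of the fibroblasts chip from 0 through 8034 to 85384 CPM. The AF wells were highest by median, from 394 through 35769 to 85384 CPM, and the NF wells ran from 48.2 through 4855 to 31508 CPM, so the groups overlapped. Its near-identical neighbour Ctla2b was at 286 against 6.98 and at 609 against 23.6 CPM, and how reads were split between the pair is uncertain.

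Among the other genes outside the lists, Gimap6, a GTPase of the immunity-associated family, was at 141 against 2.78 CPM on the cardiomyocytes chip and 67.3 against 1.19 CPM on the fibroblasts chip. Apold1, an immediate early gene of endothelium, was at 93.8 against 1.79 and at 45.2 against 1.01 CPM, and Klhl4 at 37.0 against 0.192 and at 11.2 against 0.302 CPM. The protocadherin Pcdh17 was at 335 against 5.44 and at 70.1 against 2.74 CPM. On the fibroblasts chip it had UMIs in only 10 of 103 wells, with 58.0% of them in 1 well. Entpd1, the ectonucleotidase CD39 that breaks down extracellular ATP, was at 19.1 against 0.797 and at 87.2 against 5.57 CPM. Car8, a carbonic anhydrase-related protein, was at 155 against 7.17 and at 181 against 13.7 CPM, and Igfbp3 at 92.3 against 3.22 and at 76.9 against 6.28 CPM. The Igfbp3 UMIs of the fibroblasts chip came from 24 of 103 wells, with 55.3% of them in 1 well. Family members with near-identical copies, such as the Gimap genes, are uncertain in their split of reads.

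Taken within each of the 7 well names, with their number, that held at least 10 endothelial-like wells, 17 genes were at least 4 times as high as in the other wells of the same name in every one. These were Gimap6, Col23a1, Ctla2a, Apold1, Klhl4, Erg, Icam2, Ctla2b, Adgrf5, Podxl, Entpd1, Sox7, Car8, Pdgfb, Tmem88, Tspan18 and Tshz2. Among genes with at least 50 UMIs in the endothelial-like wells, 22 of 7025 on the cardiomyocytes chip were at least 4 times as low. On the fibroblasts chip 27 of 9798 were. On both chips 2 genes were, counted only among genes with at least 100 CPM in the other wells, a limit not set for the higher genes. Myl7, the atrial myosin light chain, was at 291 against 1593 CPM and at 3.01 against 115 CPM, and Lyz2, lysozyme of macrophages, at 38.2 against 369 CPM and at 20.4 against 345 CPM.

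The sorted fractions differed in how many endothelial-like wells they held. On the cardiomyocytes chip these were 59 of 539 AFNCM wells, a share of 10.9% (8.44% to 13.9%), 13 of 533 NFNCM wells, a share of 2.44% (1.30% to 4.13%), and 2 of 272 NCM0 wells, a share of 0.735% (0.0892% to 2.63%). The AFNCM interval lay above both others. The numbered sets gave 11.9%, 12.4% and 8.60% in AFNCM1 to AFNCM3 and 2.13%, 1.18% and 3.98% in NFNCM1 to NFNCM3. These point shares were apart between the names, but some of their intervals overlapped. That of NFNCM3 reached up to 8.02%, above the lower end for AFNCM1 (7.30%) and for AFNCM3. The numbered sets lie on 1 chip and are not a replicate check. Thinned to 5000 UMIs per well, the shares were 8.68% (6.27% to 11.6%) in AFNCM, 1.67% (0.676% to 3.42%) in NFNCM and 0 of 224 wells in NCM0 (exact interval up to 1.63%). Wells under 5000 UMIs were left out of this, so that 461 of 539 AFNCM and 418 of 533 NFNCM wells entered. The median depth of all wells was 20488 UMIs in AFNCM, 18849 in NFNCM and 16044 in NCM0.

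On the fibroblasts chip the AF0 wells stood apart, with 53 of 193 wells, a share of 27.5% (21.3% to 34.3%). The AF share was 7.76% (4.73% to 11.8%), the NF share 9.20% (5.98% to 13.4%) and the NF0 share 2.03% (0.820% to 4.14%). The AF and NF intervals overlapped, and the order of AF and NF turned under other rules. Depth differed between the names, since AF0 wells had a median of 47294 UMIs against 36113 in AF, 17323 in NF and 37815 in NF0. At 5000 UMIs per well the shares were 7.29% (4.04% to 11.9%) in AF0, 5.13% in AF, 4.87% in NF and 0.306% in NF0, over 192, 234, 226 and 327 wells. With at least 5 markers in place of 3, the AF0 share was 10.9%. The NF0 share was the lowest of the 4 under each of these rules.

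**Figure D2:**
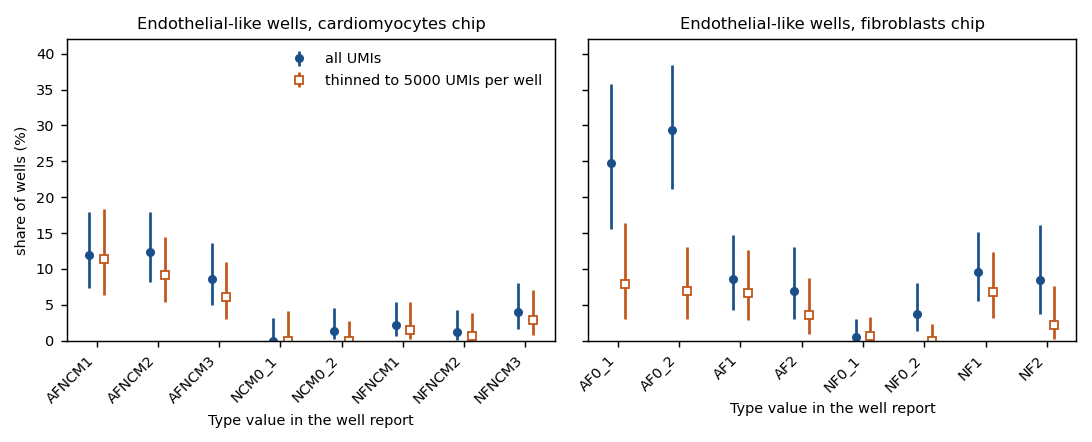
Share of wells that were endothelial-like (percent) by well name with its number, with all UMIs (filled circles) and after thinning to 5000 UMIs per well (open squares), and 95% exact binomial intervals as bars. AFNCM1 to AFNCM3 lie at 8.60% to 12.4% and NFNCM1 to NFNCM3 at 1.18% to 3.98%, and the AF0 sets, at 24.7% and 29.3% with all UMIs, fall to the level of the AF sets when thinned.

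Some endothelial-like wells also carried transcripts of the cells they were sorted with. On the cardiomyocytes chip 12 cardiomyocyte genes summed to a median of 7773 CPM (727 to 55758) in the endothelial-like wells. The other wells had a median of 49192 CPM, and 3 of 74 were above it. The ranges overlapped, since the upper quartile of the endothelial-like wells, 31678 CPM, was above the lower quartile of the other wells, 25592 CPM. Within AFNCM these medians were 8238 and 36283 CPM, and within NFNCM 4063 and 56283 CPM. The 2 NCM0 wells were at 31392 and 32793 CPM, against a median of 50836 CPM in the other NCM0 wells. The contractile gene Tnnt2, cardiac troponin T, was detected in all 74, from 110.4 through a median of 1898 to 16908 CPM. Fibroblast genes summed to a median of 891 CPM against 431 CPM, with 47 of 74 wells (63.5%) above the other wells' median. Within AFNCM, which gave 59 of the 74 wells, the medians were 1027 and 1012 CPM, and within NFNCM 694 and 105 CPM. On the fibroblasts chip they summed to 2645 against 3992 CPM, with 24 of 103 wells above. Mesothelial or epicardial genes were at a median of 84.1 against 0 CPM on the fibroblasts chip, with 79 of 103 wells (76.7%) above. Within AF0, which gave 53 of the 103 wells, they were lower than in the other wells, at 184 against 302 CPM, and within AF both medians were 0. Red blood cell genes had a median of 0 on both chips, and macrophage genes had medians of 0 and 14.8 CPM.

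Wells above the other wells' median in either cardiomyocyte or fibroblast genes were 49 of 74 (66.2%) and 40 of 103 (38.8%). That median is chip-wide, and the median of the other AFNCM wells lies above it in fibroblast genes as well, so the count includes wells at the usual level of their name. Without them 25 and 63 endothelial-like wells remained, the AFNCM share was 4.0% and the NFNCM share 0.952%, and 36 genes were at least 4 times as high on both chips. Whether such wells held more than 1 cell, or free RNA, was not tested. No doublet caller was run.

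**Figure D3:**
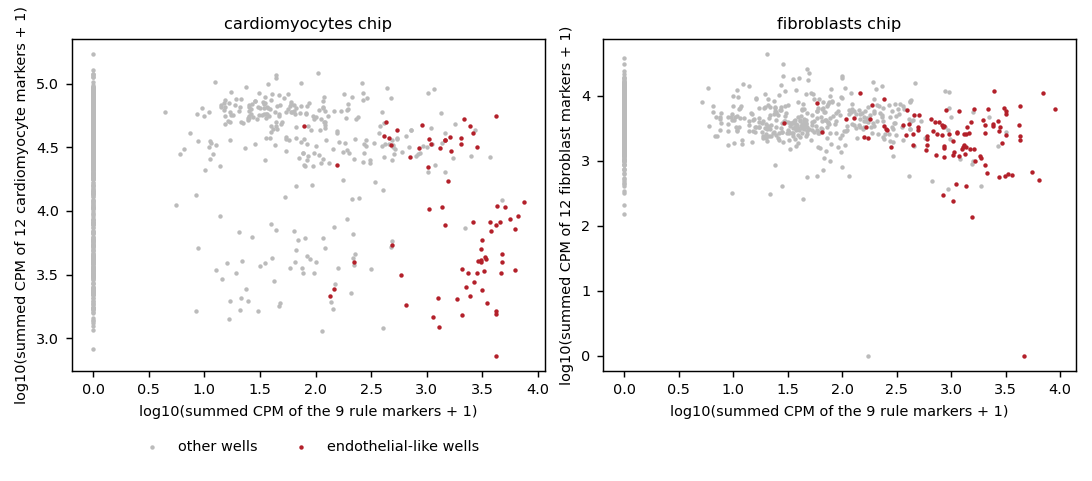
Each point is 1 well, with the summed level of the 9 rule markers on the horizontal axis and that of 12 cardiomyocyte markers (cardiomyocytes chip) or 12 fibroblast markers (fibroblasts chip) on the vertical axis, all as log10(CPM + 1). On the cardiomyocytes chip the endothelial-like wells form a low and a high group in cardiomyocyte markers, with a median of 7773 CPM against 49192 CPM in the other wells, and on the fibroblasts chip they lie within the range of the other wells, with medians of 2645 and 3992 CPM.

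Vessel-bed markers were described next, each list beside the shares of 4.65% and 2.88% for all genes. Of the capillary list, 3 of 6 genes at the UMI minimum were at least 4 times as high on the cardiomyocytes chip and 0 of 6 on the fibroblasts chip. Fabp4, a fatty acid binding protein of capillaries, was at 623 against 20.4 CPM on the cardiomyocytes chip, with UMIs in 45 of 74 wells, but at 30.5 against 10.8 CPM on the fibroblasts chip. Gpihbp1, which carries lipoprotein lipase on capillaries, was at 93.2 against 2.58 CPM in 20 wells of the cardiomyocytes chip, while on the fibroblasts chip its 18 UMIs came from 1 well. Of the arterial genes 3 of 5 and 2 of 8 were at least 4 times as high, of the venous genes 5 of 7 and 3 of 7, and of the endocardial genes 0 of 4 and 1 of 7.

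Among arterial genes, Gja4, the gap junction protein connexin 37, was at 32.2 against 0.879 CPM in 7 wells of the cardiomyocytes chip and at 62.2 against 1.88 CPM in 45 wells of the fibroblasts chip. Gja5, connexin 40, had 9 and 0 UMIs. Among venous genes, P-selectin (Selp), the leukocyte adhesion molecule stored in Weibel-Palade bodies, was at 95.3 against 7.56 CPM on the cardiomyocytes chip and at 614 against 34.3 CPM on the fibroblasts chip. Vwf, von Willebrand factor of the same granules, was at 16.7 against 1.4 CPM in 13 wells and at 32.4 against 0.95 CPM in 10 wells. Of the lymphatic genes 1 of 2 and 2 of 4 were at least 4 times as high. Lyve1 had UMIs in 7 and 5 wells, with 81.6% of those on the fibroblasts chip in 1 well, and Prox1 was lower than in the other wells of the cardiomyocytes chip, at 13.1 against 38.8 CPM.

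Of the genes of sprouting tip cells 6 of 10 were at least 4 times as high on the cardiomyocytes chip and 3 of 10 on the fibroblasts chip. Angpt2, the ligand that opposes TEK activation by angiopoietin 1, was at 291 against 5.25 CPM and at 55.4 against 9.87 CPM. Apln, the apelin peptide, was at 182 against 2.75 CPM on the cardiomyocytes chip and at 5.10 against 4.23 CPM on the fibroblasts chip, and the proteoglycan Esm1 at 88.3 against 1.26 and at 11.1 against 5.70 CPM. Pdgfb, which recruits pericytes, was at 48.6 against 3.66 and at 8.37 against 1.34 CPM.

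Of the VEGF and angiopoietin receptors 6 of 8 and 3 of 7 were at least 4 times as high. Flt1, the decoy receptor for VEGF, was at 114 against 14.4 CPM and at 153 against 42.6 CPM, and Flt4, the receptor for VEGFC, at 20.9 against 1.84 and at 24.6 against 5.55 CPM. The co-receptor Nrp1 was at 247 against 167 CPM on the cardiomyocytes chip, a ratio of 1.48, and at 238 against 108 CPM on the fibroblasts chip. Of the Notch genes 2 of 4 and 1 of 5 were. Notch4, the endothelial Notch receptor, was at 95 against 3.96 and at 30.3 against 6.02 CPM, and Notch1 had 5 and 9 UMIs. Of the BMP and TGF-beta genes 2 of 11 and 0 of 11 were, with Eng at 119 against 17.1 and at 159 against 59.6 CPM.

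Of the secreted ligands 6 of 10 and 4 of 12 were at least 4 times as high. Endothelin 1 (Edn1) was at 269 against 13.8 CPM, with UMIs in 49 of 74 wells, and at 97.3 against 14.6 CPM, with UMIs in 52 of 103. Neuregulin 1 (Nrg1), a ligand for ERBB receptors of cardiomyocytes, was at 8.80 against 1.02 and at 42.4 against 3.76 CPM. Placental growth factor (Pgf) was at 133 against 7.17 CPM on the cardiomyocytes chip but at 9.15 against 6.84 CPM on the fibroblasts chip. Of the vascular basement membrane genes 1 of 11 and 0 of 11 were, of the mesenchymal transition genes 1 of 9 and 0 of 12, and of the interferon and antigen presentation genes 2 of 12 and 0 of 11. None of 15 cell cycle genes was on either chip. Mki67, a marker of cycling cells, was at 196 against 81.2 CPM on the cardiomyocytes chip and at 175 against 155 CPM on the fibroblasts chip. At this 4-fold limit the cell cycle, mesenchymal and basement membrane shares were near the background for all genes. Smaller shifts lay below the limit on the cardiomyocytes chip. There the median ratio was 2.43 for cell cycle and 2.01 for basement membrane genes, beside 1.23 for all genes. Summed cell cycle genes had a median of 513 against 145 CPM, with 55 of 74 wells above the other wells' median. On the fibroblasts chip the median ratios were 1.12 and 1.07, beside 1.03.

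Endothelial-like AFNCM and NFNCM wells were compared on the basis of 59 and 13 wells. Between them 11.2% of 2188 genes were at least 2 times as high in AFNCM and 12.7% at least 2 times as low, with intervals that did not overlap. Between the numbered AFNCM sets, which share a name, the same shares were 6.24% to 12.3%, so the share of higher genes was within that range and the share of lower genes just above it. Of the identity genes 7 of 14 were higher in AFNCM, of the capillary genes 4 of 4, of the tip genes 3 of 6, of the Notch genes 2 of 3, of the secreted ligands 3 of 5 and of the vascular basement membrane genes 2 of 7. None of these lists had a gene at least 2 times as low. Of the endocardial genes 2 of 2 were lower, of the shear and leukocyte adhesion genes 1 of 7 was higher and 2 lower, of the BMP and TGF-beta genes 1 of 4 was lower, and none of 3 venous genes and 1 arterial gene passed either way. Sets of 1 name also differed in these lists. In AFNCM1 against AFNCM3 6 of 17 identity genes were higher and 4 lower, and in AFNCM2 against AFNCM3 2 of 4 capillary genes were higher.

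Fabp4 was at 747 CPM (714 to 781) in AFNCM, with UMIs in 41 of 59 wells, and at 173 CPM (143 to 208) in NFNCM, with UMIs in 4 of 13. Its levels in AFNCM1 to AFNCM3 were 1077, 916 and 427 CPM, and in NFNCM1 to NFNCM3 they were 0, 0 and 301 CPM, with 4, 2 and 7 endothelial-like wells behind the NFNCM values, too few to compare set by set. In the other wells Fabp4 was at 32.9 and 11.4 CPM. Apelin (Apln) was at 219.8 CPM (202 to 239) in 33 AFNCM wells and at 37.7 CPM (24.4 to 55.7) in 3 NFNCM wells. By set Apln was at 263, 207 and 209.9 CPM against 0, 49.6 and 52.4 CPM, from the same few NFNCM wells.

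Angpt2 was at 347 CPM (324 to 370.1) in 40 AFNCM wells and at 90.5 CPM in 7 NFNCM wells, with sets at 304, 282 and 427 CPM against 44.3, 9.92 and 134 CPM. Robo4, a guidance receptor that keeps vessels stable, was at 69.0 CPM (59.3 to 79.9) in 25 wells and at 4.52 CPM (0.933 to 13.2) in 2 wells. Gpihbp1 was at 113 CPM in 19 wells and 19.6 CPM in 1 well, and Esm1 at 105 and 28.7 CPM, the latter from 1 NFNCM well. Notch4 was at 117 and 13.6 CPM, Sox17 at 79.8 and 19.6 CPM, Cd93 at 598 and 195 CPM, and the Notch target Hes1 at 1668 and 629 CPM. The single-well ranges of Hes1, 0 through 1578 to 11928 CPM in AFNCM and 0 through 1138 to 6394 CPM in NFNCM, overlapped nearly fully. Cdh5, at 744 and 454 CPM, and Emcn, at 326 and 332 CPM, were rule genes.

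Several other genes that were higher in the endothelial-like AFNCM wells were higher in the other AFNCM wells too. Of 246 such genes 46 (18.7%) were at least 2 times as high in the other wells as well, and of 278 lower ones 3 (1.08%) were at least 2 times as low. The share of all genes that differed so between the other wells is not given, so these shares have no background. Xaf1, an interferon-induced gene, was at 182 and 3.02 CPM in the endothelial-like wells and at 152 and 2.89 CPM in the other wells. Rtp4, also interferon-induced, was at 268 and 7.54 CPM and at 159 and 3.04 CPM. All 5 interferon genes compared were higher in AFNCM. Kitl, the ligand of KIT, was at 156 against 6.03 CPM in the endothelial-like wells but at 15.9 and 13.8 CPM in the other wells. In the other direction 9 of 11 cell cycle genes were lower in AFNCM, with Mki67 at 158 and 338 CPM and Ube2c at 20.8 and 275 CPM, but 1 of the 13 NFNCM wells gave 56.7% and 62.6% of these UMIs. Of the cardiomyocyte genes 9 of 10 were higher in AFNCM, with Tnnt2 at 5681 and 1315 CPM. The part of cardiomyocyte RNA in these differences was not tested.

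On the fibroblasts chip the endothelial-like cells divided by well name as well. Between AF0 and AF 15.2% of 2340 genes were at least 2 times as high and 15.5% at least 2 times as low, between AF and NF 15.3% and 10.1% of 2240 genes, and between AF0_1 and AF0_2 5.37% and 3.63%. In AF0 against AF, 174 of the 355 higher genes (49.0%) and 151 of the 362 lower ones (41.7%) also differed at least 2-fold the same way between the other wells. A share over all genes in the other wells is not given beside these. Cemip, a hyaluronan-degrading protein, was at 411 against 3.23 CPM, Bdnf at 284 against 2.59 CPM and Upk1b, a uroplakin of mesothelium, at 171 against 3.23 CPM in the endothelial-like wells. In the other wells Upk1b was at 265 and 3.60 CPM.

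P-selectin was highest by sum in AF. Selp was at 1553 CPM in 14 of 19 AF wells, from 0 through a median of 131 to 10918 CPM, at 503 CPM in 47 of 53 AF0 wells, from 0 through 282 to 2052 CPM, and at 72.4 CPM in NF, from 0 through 0 to 1060.5 CPM. By median the AF0 wells were above the AF wells for Selp, so the AF sum was carried by a few wells. The atypical chemokine receptor Ackr1, a venule marker, was at 208 CPM in 8 AF wells, 1 of which gave 64.9% of the UMIs, and at 0.464 CPM in AF0. Csf3 was at 421 against 0.232 CPM and Pcdh17 at 329 against 1.86 CPM in AF against AF0. Pcdh17 was at 0 in 14 of the 19 AF wells, from 0 through a median of 0 to 1599 CPM. A single well gave 58.0% of its UMIs over the endothelial-like wells of the chip. Thrombomodulin (Thbd), an anticoagulant receptor, was at 169 CPM in 40 AF0 wells, 77.4 CPM in NF and 11 CPM in AF, and at 65.3 CPM in the other AF0 wells. Npr3, a natriuretic peptide receptor of endocardium, was at 103 CPM in AF0 but at 97.0 CPM in the other AF0 wells. The tyrosine kinase Bmx was at 136 CPM in AF0_1 and 9.17 CPM in AF0_2, a gap between sets of 1 name.

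**Figure D4:**
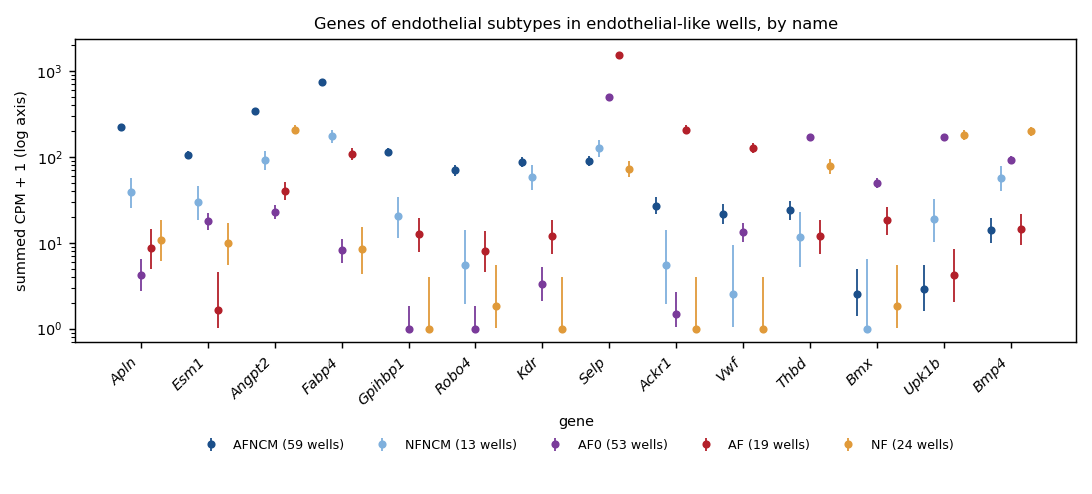
Summed level (CPM + 1, log axis) of 14 genes in the endothelial-like wells of 5 well names, with 95% exact Poisson intervals as bars. Apln and Fabp4 are highest in AFNCM, at 219.8 and 747 CPM, Selp is highest in AF, at 1553 CPM, and Thbd is highest in AF0, at 169 CPM.

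Against NF, 7 of 14 identity genes, 4 of 5 venous genes and 5 of 5 interferon genes were higher in AF, and 5 of 5 secreted ligands were lower. Flt1 was at 338 CPM in AF. The follistatin gene Fst was at 49.8 CPM in AF and 837 CPM in NF, while the other wells were at 23.3 and 25.7 CPM. Bmp4, a morphogen, was at 13.6 and 198 CPM, with the other wells at 12.3 and 18.9 CPM. Saa3, an acute-phase gene, was at 2937 and 4.94 CPM, but 1 AF well gave 76.5% of its UMIs. Of the AF against NF differences, 112 of 342 (32.7%) and 31 of 227 (13.7%) were also present in the other wells, again without a share over all genes there.

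Bulk RNA of the imCM fraction, which the rule on wells did not use, allowed a test. Totals ran from 9278909 to 12088577 counts per library. Of 14041 genes tested with edgeR's quasi-likelihood test, 6.15% were called higher in imCM-AF and 4.99% lower. A call needed a Benjamini-Hochberg adjusted p under 0.05 together with a log2 fold change beyond 0.58 either way. Of the 9 rule markers 5 were lower and 0 higher, all 9 had a negative log2 fold change, and their median was -0.67 beside 0.00 for all genes. In bulk RNA fewer cells of a type and less RNA per cell cannot be told apart. The sources do not say that the 2 libraries of a group came from separate cultures, so the p-values measure the spread between these libraries, which may be technical.

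Pecam1 (chr11:106654213-106715281, mm10) was at 175 and 187 CPM with NFs and at 101 and 100 CPM with AFs. It fell by 0.84 on the log2 scale (SE 0.10, adjusted p = 7.87e-06 in edgeR's quasi-likelihood test with Benjamini-Hochberg adjustment). Cdh5 was at 354 and 368 CPM with NFs and 216 and 214 CPM with AFs, which is -0.75 on the log2 scale (SE 0.10, edgeR adjusted p = 5.88e-05). Cldn5 was low, at 4.68 and 4.79 CPM against 1.64 and 1.09 CPM, and fell by 1.8 (SE 0.30, edgeR adjusted p = 3.87e-04). Egfl7 was at 87.5 and 95.5 CPM with NFs and 56.7 and 52.1 CPM with AFs, and Tie1 at 113 and 112 against 74.5 and 67.2 CPM. Their log2 fold changes were -0.75 and -0.67. In all 5 the libraries of the groups did not overlap, but with 2 libraries per group this adds little to the calls.

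The other 4 rule markers did not pass. Emcn was at 105 and 110 CPM with NFs and at 100 and 93.7 CPM with AFs, -0.15 on the log2 scale (edgeR adjusted p = 0.251). Kdr was at -0.14 (edgeR adjusted p = 0.403) and Esam at -0.35 (edgeR adjusted p = 0.0404). Tek was at -0.58 (edgeR adjusted p = 0.00124), at the fold limit, and was called under some alternatives.

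Of 33 identity genes tested 9 were lower (27.3%, beside 4.99% of all genes) and 1 was higher, with a median log2 fold change of -0.39. Nos3, which had no UMIs in the endothelial-like wells, was at 51.6 and 54.8 CPM with NFs and at 24.4 and 22.3 CPM with AFs and fell by 1.19 (edgeR adjusted p = 5.29e-07). Ecscr was at 58.3 and 64.1 against 35.2 and 30.9 CPM, and Cd34 at 107 and 111 against 66.0 and 60.8 CPM. These are -0.89 and -0.78 on the log2 scale. Myct1, Ramp2, Ptprb and Fli1 fell by 0.83, 0.80, 0.71 and 0.66. Sox17, at -0.66, and Sox7, at -0.59, were also called, but both lost the call under DESeq2 and when single libraries were left out, for Sox17 any library and for Sox7 the second of either group. Thbd was the 1 called higher, at 16.9 and 17.5 CPM with NFs and at 28.1 in both libraries with AFs, 0.70 on the log2 scale (edgeR adjusted p = 4.56e-04).

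**Figure D5:**
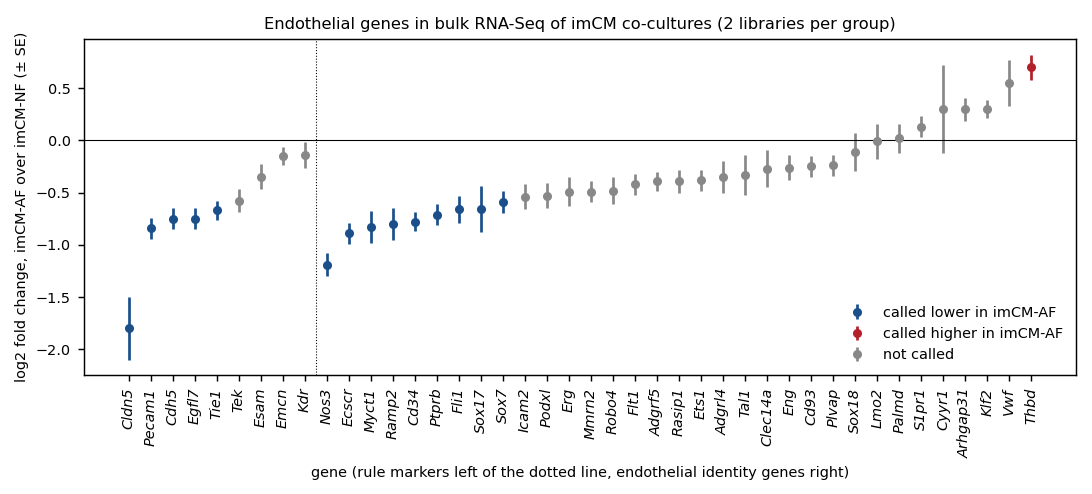
Log2 fold change in bulk RNA, imCM-AF over imCM-NF, of the 9 rule markers and 33 endothelial identity genes, each with 1 SE as its bar and coloured by its call in edgeR. The rule markers lie below 0, with a median of -0.67, and Thbd is the 1 gene called higher, at 0.70.

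Of the 89 genes high in endothelial-like wells on both chips 84 were tested in bulk, and 21 of these (25%) were lower and 5 higher, with a median log2 fold change of -0.37. Ctla2a was at 282 and 296 CPM with NFs and 197 and 187 CPM with AFs, -0.59 on the log2 scale (SE 0.10, edgeR adjusted p = 4.64e-04), just past the fold limit. Of the 17 genes high within every well name 4 were lower. Genes of tip cells and receptors were lower in part. Apln was at 47.3 and 51.6 against 32.4 and 30.5 CPM and fell by 0.66 (edgeR adjusted p = 2.04e-04), Nrp2 fell by 0.92, Notch4 by 0.83, Notch1 by 0.72 and the semaphorin receptor Plxnd1 by 0.71. Angpt2, at -0.54, Robo4, at -0.48, and Fabp4, at -0.15, did not pass.

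The lists below stand beside 4.99% of all tested genes called lower and 6.15% called higher in imCM-AF. Lower were 3 of 11 arterial, 3 of 13 tip, 3 of 8 VEGF and angiopoietin receptor and 2 of 8 Notch genes. So were 3 of 14 secreted ligand, 3 of 12 mesenchymal transition, 1 of 12 vascular basement membrane and 1 of 12 BMP genes. None in these lists was higher, and the last 2 shares, 8.33% each, were near that of all genes. Of the shear genes 4 of 12 were lower and 1 higher, of the endocardial genes 2 of 8 were lower and 1 higher (Npr3, at 0.64), and of the venous genes 1 of 8 was lower and 1 higher (Lrg1, at 0.75). Of the lymphatic genes 0 of 4 were lower and 1 was higher, Prox1, at 0.64, with a median of 0.34. Of the capillary genes 2 of 8 were lower and 1 higher, Cd36, a fatty acid transporter also of cardiomyocytes, at 1.35. The lists of other cell types moved too, since 6 of 12 fibroblast genes, 3 of 10 pericyte and smooth muscle genes and 2 of 10 macrophage genes were lower, and 5 of 16 cell cycle genes were lower. Their part in the endothelial values was not tested. Of the listed genes the largest falls were in Postn, at -1.87, Cldn5, Dkk2, at -1.54, Hapln1, at -1.43, and Cxcr4, at -1.36. The largest rises were in Ly6a, from 4.35 and 5.29 CPM with NFs to 47.9 CPM in both libraries with AFs, at 3.29, Ifi44, at 2.24, Ifit1, at 1.99, Irf7, at 1.81, and H2-D1, at 1.43. Of 12 interferon and antigen presentation genes 11 were higher.

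For the endothelial share and some endothelial genes, the measures of wells and of bulk RNA thus stood on different sides. The AFNCM wells held a share of 10.9% endothelial-like wells against 2.44% in NFNCM. Among these wells Apln, Angpt2, Robo4 and Notch4 were higher in AFNCM. In bulk the 5 called rule markers, Apln and Notch4 were lower in imCM-AF, and Angpt2 and Robo4 were not called. Other lists went the same way in both. Interferon genes were higher with AFs, 5 of 5 in wells and 11 of 12 in bulk. Cell cycle genes were lower, 9 of 11 in wells and 5 of 16 in bulk. Of all genes, 11.2% were higher and 12.7% lower in wells, and 6.15% and 4.99% in bulk. As given above, a single NFNCM well gave most of the Mki67 and Ube2c UMIs counted there. The wells are a count of captured cells on 1 chip, and the bulk libraries are a sum of RNA over the imCM fraction. The cause of the gap was not tested.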

How the data were processed

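The chip tables the authors deposited hold whole-number UMI counts, genes by wells, beside a report that names each well. Reads had been aligned to mm10 and assigned to Ensembl genes with STAR 2.5.2b, per the submitters' processing notes and the study's methods. For bulk RNA the authors deposited raw counts per gene, aligned to mm10 with subread and assigned to RefSeq genes. The submitters' notes name Subread 1.4.6-p1 and featureCounts without saying for which data. Whether strand was used is not stated, so overlapping genes are uncertain. Spike-in columns, 85 and 79, were not used.

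Wells needed 500 genes outside the mitochondrial genome. UMIs were summed over wells and divided by their total to give CPM. Folds over the other wells used 4, with at least 50 UMIs in the endothelial-like wells. Genes counted as lower on both chips instead needed a CPM of at least 100 in the other wells. Folds between well names used 2, a CPM of at least 100 for genes named, at least 10 endothelial-like wells and intervals that did not overlap. Named were the rule markers, members of 23 gene lists (17 endothelial, 6 of other cell types), the 20 genes outside them with the largest smaller ratio of the 2 chips, the 10 largest folds each way between names and the 5 called list genes with the largest fall and rise in bulk. Of these the text gives a part. Members and lists were chosen with earlier results of these data known.

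Bulk groups came from the labels. edgeR 4.0.16 (R 4.3.3, TMM, quasi-likelihood test) was fitted to 14041 of 27179 genes with a CPM of at least 1 in at least 2 libraries, and p-values were adjusted by Benjamini-Hochberg. edgeR replaced the study's limma because the values are counts. For 1904 identifiers no symbol was matched. Tested on simulated data with 13883 genes, edgeR recovered 200 of 200 changed genes with 3 false calls. The planted changes lay in genes away from the lowest levels and were larger than most endothelial falls given here. Recovery at those smaller sizes was not tested. Alternatives were other scalings, DESeq2 1.42.0, limma 3.58.1, no filter, other thresholds, a replicate block, leaving out libraries, and other rules for wells. Python 3.11.15 was used for the wells.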

Additional observations from a re-analysis of the deposited data

Results flagged for a closer look

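Spike-in columns, which entered no comparison, held a signal above that of the negative control wells. Endothelial-like wells had a median of 356 spike-in UMIs on the cardiomyocytes chip, where 85 spike-in columns are given and the negative control wells reached at most 16 UMIs, and 268 on the fibroblasts chip, with 79 columns and at most 41 UMIs. The median of the negative control wells was 0 and 15 UMIs. No group held enough samples for a search for samples far from the others.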

How the results depend on the processing

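Under the alternatives chosen with earlier results of these data known, 104 values stayed close to those reported and 28 moved, and under those added after seeing the data 19 stayed and 9 moved. The order of AF and NF turned, from 7.76% against 9.20% to 5.13% against 4.87% when thinned and to 6.94% against 2.68% with at least 5 markers. With at least 5 markers the fibroblasts chip held 47 endothelial-like wells and the shares were 0 in NCM0, 10.9% in AF0, 0.58% in NF0 and 2.68% in NF. Thinned to 5000 UMIs there were 47 and 38 wells and shares of 0 in NCM0, 7.29% in AF0, 0.306% in NF0 and 4.87% in NF. Without wells above the other wells' median in cardiomyocyte or fibroblast markers, 25 and 63 wells remained, with shares of 4.0% in AFNCM, 0.952% in NFNCM, 0 in NCM0, 3.0% in AF, 0.295% in NF0 and 5.58% in NF, 36 genes on both chips and a median log2 ratio of 4.97 for the identity genes of the cardiomyocytes chip (4.31 with all wells). Without AF0 wells the fibroblasts chip held 50 wells and a median log2 ratio of 4.38 (3.75 with all). Without wells above 2 times the median UMIs there were 42 and 52 wells, an AF0 share of 17.9%, 42 genes on both chips and medians of 5.22 and 3.16. Within each well name 17 genes passed. Of the 89 genes high on both chips, 34 of the 36 and 32 of the 42 in those alternatives were shared.

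In bulk, the adjusted p alone called 3789 genes and 18 identity genes lower, and an absolute log2 fold change over 1 called 565 genes, with 1 rule marker and 1 identity gene lower. Leaving out 1 library gave 879 to 1929 calls, with 5 to 6 rule markers and 7 to 9 identity genes lower. The count was 879 when the second imCM-NF library was left out and 988 when the second imCM-AF library was. DESeq2 called 1078 genes, limma-voom 1566, and no filter 1704. Sox17 lost its call under DESeq2, the block and every library left out, Sox7 under both other scalings, DESeq2 and without the second library of either group, and Ctla2a under upper-quartile scaling and without the second library of either group.

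With the replicate number as a block 1430 genes were called against 1564 without it, with 6 rule markers and 8 identity genes lower. The labels do not say that the numbers pair the libraries, and the deviations of the same-numbered libraries correlated at -0.13. With the numbers crossed 1668 genes were called.

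The wells come from 1 library per chip, so differences between well names have no replicate check, and their intervals cover counting error only. At these depths a gene at 0 in a well was not detectable, which does not show that it was absent.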
